A study of Homo sapiens with 32 samples.

Results

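The mitochondrially encoded RNAs are the transcripts of the small circular genome inside mitochondria. They were taken as the count-matrix features named MT- followed by a mitochondrial gene, which gave 13 mRNAs, 2 rRNAs and 22 tRNAs, 37 of 62703 features. They were followed through 32 poly(A)-selected RNA-seq libraries of HEK293T, a transformed human embryonic kidney line. The series concerns the RNA-binding proteins IGF2BP1, IGF2BP2 and IGF2BP3, and names innate immune signalling and leukemia stem cells in its title. Each gene was knocked out separately by transient CRISPR/Cas9 plasmids, and RNA was taken from whole cells (total) and from nuclear and cytoplasmic fractions.

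In each of the 3 kinds of RNA there were 4 control libraries, 1 in each of batches 1 to 4, from cells given a guide that targets no mammalian gene. Whether those cells were a clone or a pool is not given in the sources used here. The IGF2BP1 knockout had 2 libraries per kind (batches 1 and 2), the IGF2BP2 knockout 2 (batches 3 and 4), and the IGF2BP3 knockout 2 (batches 3 and 4) plus 2 further cytoplasmic libraries in batch 5, which holds no control. No group had any other treatment. Every knockout is 1 clone, so its libraries repeat that clone, the spread between them may be technical, and a clone's own traits cannot be told apart from the loss of its gene.

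One pair of libraries was not distinct. The second total library and the first nuclear library of the IGF2BP1 knockout held the same count in every feature (0 of 62703 differed, 26176 above 0). Across 15172 genes this library correlated at r = 0.988 with the other total library and at r = 0.995 with the other nuclear library of that clone. The main IGF2BP1 values and counts in total and nuclear RNA are therefore also given without it. A fit without it leaves 1 knockout library of that kind, which is assumed to vary like the other groups. Libraries of a kind share 1 estimate of the spread. The shared library thus also enters the calls of the other knockouts and the background shares in total and nuclear RNA. The IGF2BP3 count in total RNA moved without it, as given with the left-out libraries near the end.

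Library totals ran from 13689067 to 26119480 counts. As a check of the labels, log2 changes of the targeted gene (total, then nuclear, then cytoplasmic) were -4.23, -3.98 and -4.28 in the IGF2BP1 clone, -1.31, -1.39 and -1.35 in the IGF2BP2 clone and -1.19, -0.95 and -1.21 in the IGF2BP3 clone. All 7 HEK293T markers were detected, and the leukocyte gene PTPRC did not exceed 0.122 CPM (counts scaled to library size), SPI1 0.529 and CD34 0.919. Nuclear marker RNAs (MALAT1, NEAT1 and KCNQ1OT1, with MEG3 at no more than 0.0731 CPM) summed to 262 to 372 CPM in control nuclear and 128 to 150.5 CPM in control cytoplasmic libraries, and cytoplasmic markers such as GAPDH and ACTB to 11313 to 12584 and 14842 to 16513 CPM, so each fraction held RNA of the other.

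Mitochondrial DNA is transcribed from both strands into long precursors. The transcript here called heavy-strand carries most genes; the light-strand transcript carries MT-ND6, a few tRNAs and long stretches opposite the other genes, which are normally degraded. The tRNAs lie between the other genes, and their excision releases the mRNAs and rRNAs, after which a mitochondrial poly(A) polymerase adds short tails that complete the stop codon of several mRNAs. MT-ND6 is known for carrying little or no tail, and the rRNAs for very short ones. Poly(A) selection therefore reads tail and amount together, and in these libraries a change in tail, in RNA per cell and in the number of cells with the RNA cannot be told apart.

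The positions and letters given here come from the GENCODE 29 annotation of GRCh38, in which all 37 members were matched by identifier and symbol. 28 members lie on the heavy-strand transcript (12 mRNAs, 2 rRNAs, 14 tRNAs) and 9 on the light-strand transcript (MT-ND6 and 8 tRNAs: MT-TQ, MT-TA, MT-TN, MT-TC, MT-TY, MT-TS1, MT-TE, MT-TP). The last 24 bases of 5 mRNAs are shown because these members differ in strand and in how the reading frame ends. Capitals mark the stop letters that the gene itself encodes. MT-ND6 runs on the minus strand of the reference and the others on the plus strand.
MT-ND6 (chrM:14149-14172): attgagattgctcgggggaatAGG
MT-CO1 (chrM:7422-7445): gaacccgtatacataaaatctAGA
MT-ND2 (chrM:5488-5511): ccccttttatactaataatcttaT
MT-ND3 (chrM:10381-10404): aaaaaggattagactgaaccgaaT
MT-ND5 (chrM:14125-14148): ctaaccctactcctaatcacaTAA
MT-ND2 and MT-ND3 end on a single T, and 6 of the 13 mRNAs do not end on a whole codon. MT-ND5 and MT-ND6 abut at position 14149 on opposite strands. The library kit marks strand, but whether the counting used it is not given in the sources used here, so reads of one strand counted for a gene of the other cannot be told apart.

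Some pairs of genes share 1 mRNA. The 46 bases common to MT-ATP8 and MT-ATP6 are shown in lower case, since reads there cannot be assigned to either gene; MT-ND4L and MT-ND4 share 7 bases, shown in capitals because the stop of the first and the start of the second lie within them.
MT-ATP8 and MT-ATP6 (chrM:8527-8572): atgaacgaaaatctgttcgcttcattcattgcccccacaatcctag
MT-ND4L and MT-ND4 (chrM:10760-10766): ATGCTAA
The tRNAs of the light-strand transcript that changed most often, MT-TQ and MT-TP, and the most counted tRNA of the heavy-strand transcript, MT-TL1, are given whole, with the first pair on the minus strand.
MT-TQ (chrM:4329-4400): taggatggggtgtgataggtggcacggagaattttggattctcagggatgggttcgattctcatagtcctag
MT-TP (chrM:15956-16023): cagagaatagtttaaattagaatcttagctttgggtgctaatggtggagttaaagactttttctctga
MT-TL1 (chrM:3230-3304): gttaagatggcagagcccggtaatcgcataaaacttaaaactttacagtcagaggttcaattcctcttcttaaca
Light-strand members were richer in G (median 28.8%, range 23.5% to 36.1%) than heavy-strand members (median 14.3%, range 6.28% to 19.1%), and the ranges did not overlap.

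Levels can be compared between genes only per length, here as FPKM (read fragments per length and library size) as the authors deposited it. In control total RNA the 3 subunits of complex IV, cytochrome c oxidase, stood highest. MT-CO1 was at 5022 ± 462 FPKM (SD, n = 4), MT-CO2 at 4725 ± 497 and MT-CO3 at 4708 ± 735, a spread that does not separate them. The ATP synthase genes MT-ATP6 (3524 ± 453 FPKM) and MT-ATP8 (3375 ± 575 FPKM) followed, and also lay within each other's spread. Among complex I genes, MT-ND4 stood at 2901 ± 313 FPKM, MT-ND4L at 2209.8 ± 279, MT-ND1 at 1442 ± 109, MT-ND3 at 1297 ± 84.2, MT-ND2 at 1223 ± 120.5 and MT-ND5 at 785 ± 69.6. MT-CYB, the complex III subunit, was at 1553 ± 128 FPKM. The 16S rRNA MT-RNR2 (2869.8 ± 273 FPKM) was near MT-ND4, and the 12S rRNA MT-RNR1 (1696 ± 127 FPKM) near MT-CYB. MT-ND6, the complex I subunit encoded on the light-strand transcript, was the lowest mRNA at 328 ± 47.8 FPKM. It was also the only mRNA of the 13 with a higher FPKM in control nuclear (374 ± 64.7) than in control cytoplasmic RNA (119.9 ± 22.2).

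Control nuclear and cytoplasmic RNA divided the members by strand. The call used throughout is a Benjamini-Hochberg adjusted p under 0.05 over all genes in edgeR's quasi-likelihood test with batch in the model. Of 30 members tested, 27 were called, 7 higher and 20 lower in the nuclear fraction, where 65.9% of all genes were called (32.6% higher, 33.3% lower). All 7 light-strand members that could be tested were higher in nuclear RNA, whereas 20 of the 23 heavy-strand members tested were lower and 0 higher. The plot of nuclear against cytoplasmic levels along the genome shows the 2 strands apart. Nuclear and cytoplasmic levels here are shares of each library, not amounts per cell.

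MT-ND6 was read at 199, 220.4, 178 and 157 CPM in the control nuclear libraries of batches 1 to 4 and at 44.6, 57.4, 70.1 and 64 CPM in the cytoplasmic ones. Every nuclear value exceeded every cytoplasmic value, with a log2 difference of 1.55 ± 0.11 (adjusted p = 1.03e-11). MT-ND4, a heavy-strand complex I mRNA, stood at 2237, 1763, 1710.0 and 2121 CPM in nuclear and 11234, 11217, 13577 and 12347 CPM in cytoplasmic RNA, the reverse order, again with no overlap (log2 -2.77 ± 0.12, adjusted p = 2.40e-15). The 12 heavy-strand mRNAs ranged from -1.46 (MT-CO3) to -2.77 (MT-ND4). The rRNAs were at -1.46 ± 0.12 for MT-RNR1 and -1.33 ± 0.10 for MT-RNR2. Light-strand tRNAs were at 1.91 for MT-TQ, 1.49 for MT-TP, 2.23 for MT-TE, 2.20 for MT-TS1, 2.07 for MT-TY and 1.47 for MT-TC, against -2.19 for heavy-strand MT-TL1. Sizes for several rest on few counts. No control cytoplasmic library held more than 11 counts of MT-TS1, 8 of MT-TE, 6 of MT-TC or 4 of MT-TY. The heavy-strand tRNAs MT-TF, MT-TV and MT-TW were not called. Nuclear gene copies of mitochondrial sequence, which can share reads with the members, amounted to 0.540% to 1.04% of the members' counts, and all 7 that could be tested were lower in nuclear RNA (median log2 -2.15).

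**Figure D1:**
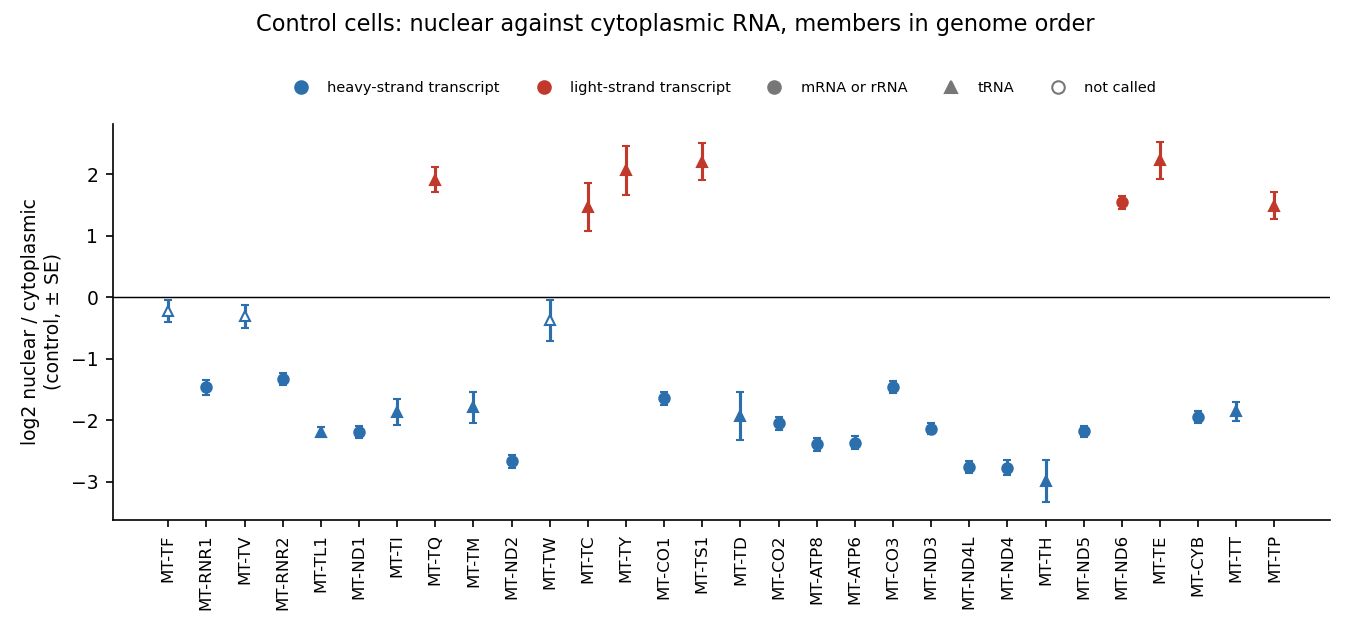
Log2 difference of nuclear against cytoplasmic RNA in control cells (y axis, ± SE) for the 30 members tested, in genome order (x axis), from edgeR's quasi-likelihood fit over 4 libraries of each fraction. Colour gives the strand, shape the RNA class, and open symbols were not called; the 7 light-strand members lie above 0 and the heavy-strand members below it.

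The share of a library taken by the 37 members was highest, among nuclear libraries, in the IGF2BP3 clone. In control nuclear libraries of batches 1 to 4 it was 2.33, 2.02, 2.06 and 2.42%, and in the IGF2BP3 knockout 3.86 and 4.09%, above every control. Nuclear shares were 1.99 and 2.12% after loss of IGF2BP2 and 2.28 and 2.49% after loss of IGF2BP1 (the first of these is the shared library), within or beside the control range. In total RNA, control libraries gave 3.16, 3.02, 3.78 and 3.39%, the IGF2BP1 knockout 3.02 and 2.28% (the second is the shared library), the IGF2BP2 knockout 3.4 and 3.49% and the IGF2BP3 knockout 4.07 and 4.2%. Only the IGF2BP3 values lay above all 4 controls. These shares are of unscaled library totals, whereas the fold changes below use TMM scaling of the libraries. TMM factors in total RNA were 1.09 and 1.09 in the IGF2BP3 knockout and 0.936, 0.939, 0.942 and 0.936 in the controls. TMM scaling therefore sets this knockout lower against the controls than the shares do.

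Cytoplasmic RNA held the largest share of the 3 kinds in every group. The control libraries gave 7.19, 7.33, 8.43 and 7.98%, and those of batches 3 and 4 were higher than those of batches 1 and 2. The IGF2BP2 knockout, at 10.1 and 9.56%, lay above all controls, and the IGF2BP1 knockout, at 6.63 and 6.79%, below all of them. The IGF2BP3 knockout gave 8.52, 8.97, 9.36 and 8.5%, the last pair from batch 5, all above the controls though the lowest value was close to the highest control. Transfer RNA features took only 0.00165% to 0.00872% of any library. No test was made on these summed shares, which are not TMM-scaled. In batches 3 and 4 the cytoplasmic TMM factors were 1.12 and 1.11 in the IGF2BP3 and 1.075 and 1.09 in the IGF2BP2 knockout. The controls of those batches had 0.922 and 0.932. The TMM-scaled fold changes below therefore set both knockouts lower against these controls than the shares do.

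**Figure D2:**
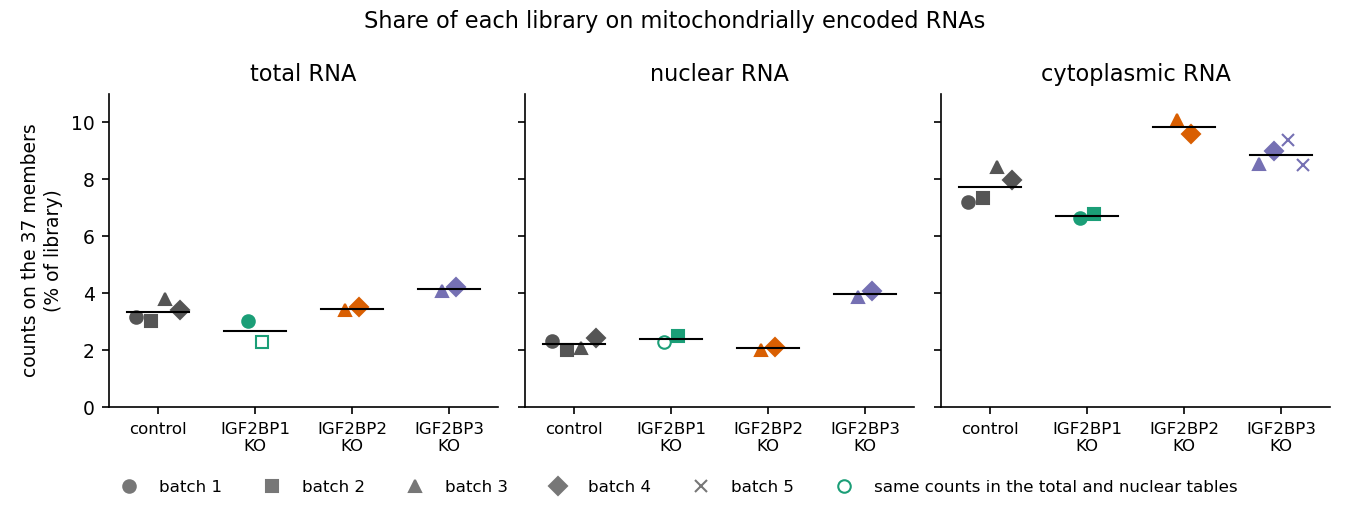
Percent of each library's counts on the 37 members (y axis) by genotype (x axis), 1 point per library, bar at the mean, for total, nuclear and cytoplasmic RNA. The IGF2BP3 knockout nuclear libraries, at 3.86% and 4.09%, lie above the 4 control nuclear libraries; open symbols mark the library present in both tables.

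How many members were called differed between the knockouts. Of the members, 30 were tested in total, 29 in nuclear and 31 in cytoplasmic RNA; the others were tRNAs with few counts (MT-TN, MT-TK, MT-TG, MT-TR, MT-TS2 and MT-TL2 in all kinds, MT-TD also in total and nuclear, MT-TH in nuclear RNA), of which MT-TN reached at most 2 counts in a library. In the IGF2BP1 knockout 0 rose and 8 fell in total RNA, where 24.2% of all genes were called (10.7% higher, 13.5% lower); 3 rose and 12 fell in nuclear RNA (background 25.7%, 12.7% higher and 13.0% lower); and 1 rose and 19 fell in cytoplasmic RNA (background 44.4%, 22.5% and 21.9%). Without the shared library the first 2 became 1 up with 6 down and 10 up with 7 down. With all libraries, the share called in total RNA was near the background, so that count is no result about the members. Background shares here and below come from fits with all libraries and do not apply to counts without the shared library. Without the first total knockout library, or without the control of its batch, 16 were called in total RNA, with only the shared library then standing for the knockout.

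Loss of IGF2BP2 gave a different count: 0 rose and 13 fell in total RNA (background 47.0%, 23.3% higher and 23.7% lower), 0 rose and 16 fell in nuclear RNA (49.7%, 24.8% and 24.9%) and 8 rose and 10 fell in cytoplasmic RNA (64.2%, 30.9% and 33.2%). With IGF2BP3 knocked out, 4 rose and 1 fell in total RNA (background 46.9%, 23.5% and 23.4%), 16 rose and 2 fell in nuclear RNA (50.4%, 25.1% and 25.3%) and 4 rose and 14 fell in cytoplasmic RNA (64.7%, 31.5% and 33.2%). Median log2 changes over the tested members (total, then nuclear, then cytoplasmic) were -0.22, -0.13 and -0.29 in the IGF2BP1 clone, -0.48, -0.58 and -0.12 in the IGF2BP2 clone and -0.05, 0.57 and -0.06 in the IGF2BP3 clone, while the medians over all genes in these comparisons lay between 0.0045 and 0.02. As shares of the members tested, the counts in all kinds of IGF2BP2 knockout RNA and in IGF2BP3 knockout cytoplasm were close to the background, and read over both directions they are no result about the members. The split of higher against lower calls moved with the scaling: in IGF2BP3 knockout cytoplasm, upper-quartile scaling gave 7 up and 7 down and library totals 10 and 6. In IGF2BP2 knockout cytoplasm the same settings gave 11 and 7, and 12 and 5; these settings raised the median of all genes there by 0.15 to 0.27. In total RNA, upper-quartile scaling gave 8 and 0 and library totals 10 and 0 for IGF2BP3, and library totals gave 3 and 11 for IGF2BP2. In nuclear RNA, library totals gave 7 and 11 for IGF2BP1 and 17 and 1 for IGF2BP3.

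**Figure D3:**
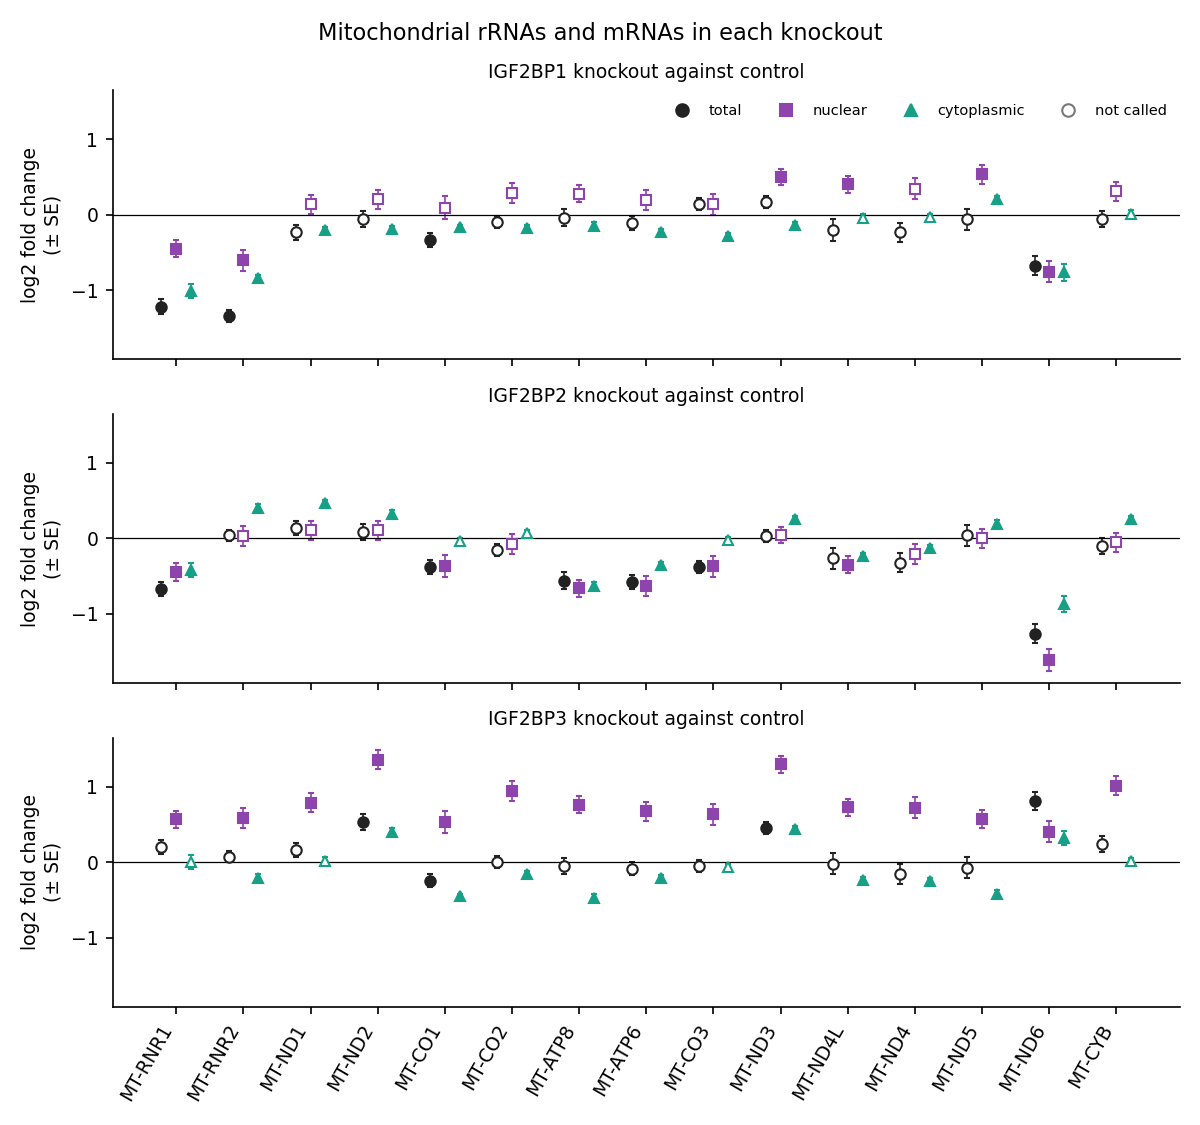
Log2 fold change of the 2 rRNAs and 13 mRNAs in each knockout against control (y axis, ± SE, edgeR's quasi-likelihood fit), in genome order (x axis), for total, nuclear and cytoplasmic RNA; open symbols were not called. In the IGF2BP1 knockout both rRNAs and MT-ND6 lie below 0 in all kinds, and in the IGF2BP3 knockout the nuclear symbols all lie above 0.

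The clearest change in the IGF2BP1 knockout was in the mitochondrial rRNAs, the structural RNAs of the mitochondrial ribosome, which fell in total, nuclear and cytoplasmic RNA. MT-RNR1 (chrM:648-1601), the 12S rRNA of the small subunit, stood at 1798, 1654, 1616 and 1507 CPM on the TMM scale in control total libraries of batches 1 to 4 and at 828 and 664 in the knockout (the second is the shared library). MT-RNR2 (chrM:1671-3229), the 16S rRNA of the large subunit, stood at 4252, 4079.8, 4916 and 4943 CPM in the controls and 1791 and 1503 in the knockout. Both knockout libraries were far below every control for both genes. The log2 changes were -1.22 ± 0.09 (adjusted p = 3.64e-06) for MT-RNR1 and -1.34 ± 0.08 (adjusted p = 2.19e-07) for MT-RNR2, and without the shared library -1.11 ± 0.09 (adjusted p = 9.77e-11) and -1.24 ± 0.08 (adjusted p = 5.97e-13).

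In IGF2BP1 knockout cytoplasm MT-RNR1 was at 903 and 909.7 CPM against 1851, 1806, 3204 and 2821 in the controls, and MT-RNR2 at 3009 and 3064 against 5419.5, 5455, 8271 and 7818. The knockout lay below all 4 controls, including the lower pair from its own batches. The changes were -1.01 ± 0.09 (adjusted p = 5.19e-11) and -0.84 ± 0.04 (adjusted p = 4.01e-17). In nuclear RNA MT-RNR1 was at 666 and 703 CPM (the first is the shared library) against 882, 989, 782 and 977, and MT-RNR2 at 1506 and 1705 against 2479.8, 2395, 2886 and 3584. Both genes were lower than in every control, by less than in the other kinds: -0.45 ± 0.12 (adjusted p = 0.00292) and -0.60 ± 0.14 (adjusted p = 0.000594), and without the shared library -0.49 ± 0.12 (adjusted p = 0.00276) and -0.49 ± 0.12 (adjusted p = 0.00281).

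The rRNA part of the mitochondrial counts does not depend on library scaling. It was 17.9, 17.8, 16.3 and 17.8% in control total libraries and 8.51 and 9.18% in the IGF2BP1 knockout, 13.3, 15.9, 17.7 and 18.5% and 9.18 and 8.99% in nuclear RNA, and 9.33, 9.19, 12.6 and 12.4% and 5.75 and 5.7% in cytoplasmic RNA. The knockout was lower than all controls in each kind. In the IGF2BP2 and IGF2BP3 knockouts the rRNA part was 19.2 and 18.3% and 18.3 and 18.4% in total RNA.

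The IGF2BP2 knockout separated the rRNAs from each other. In total RNA MT-RNR1 was at 968 and 996 CPM, below all controls (-0.67 ± 0.09, adjusted p = 7.52e-05), while MT-RNR2 was at 5132 and 5010.2 CPM, above them all by a small margin, and was not called (0.04 ± 0.07, adjusted p = 0.686). In nuclear RNA MT-RNR1 was at 616 and 676 CPM (-0.44 ± 0.12, adjusted p = 0.00154) and MT-RNR2 at 3169 and 3431 (0.03 ± 0.13, adjusted p = 0.854). In cytoplasmic RNA MT-RNR2 rose, at 10965 and 10376 CPM above every control (0.41 ± 0.04, adjusted p = 5.41e-10). Cytoplasmic MT-RNR1, at 2297 and 2213 CPM, lay between the controls of batches 1 and 2 and those of its own batches 3 and 4 (-0.42 ± 0.09, adjusted p = 0.000156); without the batch term it was -0.10 (adjusted p = 0.719), with library totals -0.19 (adjusted p = 0.0583), and with DESeq2 its adjusted p was 0.139. The nuclear call for MT-RNR1 ended without control library 4 (-0.29, adjusted p = 0.251).

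Within each library, MT-RNR2 counts per MT-RNR1 count were 2.36, 2.47, 3.04 and 3.28 in control total RNA and 5.3 and 5.03 in the IGF2BP2 clone. In nuclear RNA the ratio was 2.81, 2.42, 3.69 and 3.67 in the controls and 5.15 and 5.08 in this knockout, and in cytoplasmic RNA 2.93, 3.02, 2.58 and 2.77 and 4.77 and 4.69. The IGF2BP2 values were above every control in each kind, as the plot of ratios within libraries shows. For the IGF2BP1 knockout the ratio was 2.16 and 2.26 in total, 2.26 and 2.42 in nuclear and 3.33 and 3.37 in cytoplasmic RNA, and for the IGF2BP3 knockout 3.17 and 2.66, 3.5 and 3.97 and 2.29, 2.35, 1.8 and 2.47, the last 2 cytoplasmic values from batch 5. The IGF2BP3 ratios lay below all controls in cytoplasm and within or near them elsewhere.

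In the IGF2BP3 knockout both rRNAs rose in nuclear RNA. MT-RNR1 was at 1338 and 1251 CPM (0.57 ± 0.12, adjusted p = 6.90e-05) and MT-RNR2 at 4681 and 4966 CPM (0.58 ± 0.13, adjusted p = 0.000329), above all controls for both genes. Without control library 3 neither call held (MT-RNR1 0.42, adjusted p = 0.0938, MT-RNR2 0.48, adjusted p = 0.116). In total RNA neither was called: MT-RNR1 at 1638 and 1948 CPM gave 0.20 ± 0.09 (adjusted p = 0.0991) and MT-RNR2 at 5186 and 5175 gave 0.07 ± 0.07 (adjusted p = 0.455). In cytoplasm MT-RNR2, at 6808, 7152, 7433 and 6458 CPM, overlapped the controls and was lower than the 2 controls of its batches (-0.20 ± 0.04, adjusted p = 0.000124); the sign turned with library totals (0.06) and without the batch term (0.05). The batch 5 libraries add nothing to this or any other fold change, since no control shares their batch.

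**Figure D4:**
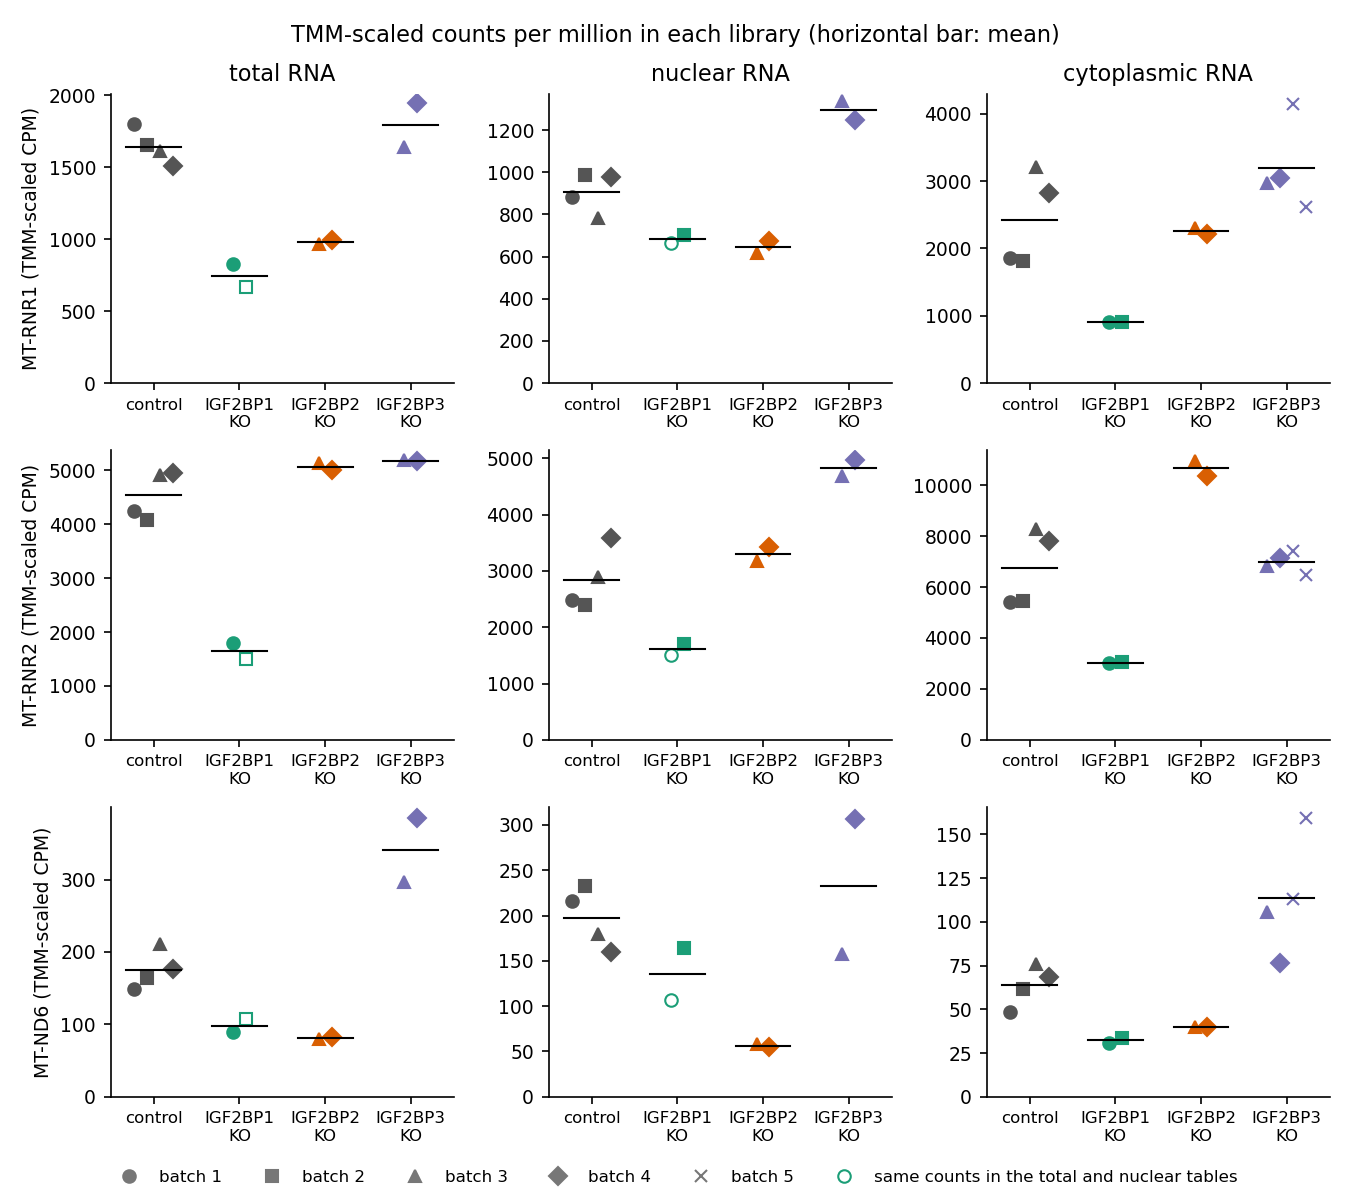
TMM-scaled CPM (y axis) of MT-RNR1, MT-RNR2 and MT-ND6 in each library by genotype (x axis), with a bar at the mean and symbols for the batch, for total, nuclear and cytoplasmic RNA. The IGF2BP1 knockout lies below all controls for both rRNAs in each kind, and the IGF2BP2 knockout lies below all controls for MT-ND6; open symbols mark the library present in both tables.

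MT-ND6 (chrM:14149-14673, minus strand), the complex I subunit of the light-strand transcript, fell in the IGF2BP1 and IGF2BP2 knockouts in all kinds of RNA. It rose in total RNA of the IGF2BP3 knockout, while its calls in the 2 fractions there rested on single libraries. In control total libraries it was at 149, 164, 211 and 177 CPM on the TMM scale. The IGF2BP1 knockout held 89.6 and 107 CPM, the IGF2BP2 knockout 79.5 and 82.7 and the IGF2BP3 knockout 297 and 384. No knockout library overlapped the controls. The changes were -0.68 ± 0.12 (adjusted p = 0.00173), -1.26 ± 0.12 (adjusted p = 5.37e-06) and 0.81 ± 0.12 (adjusted p = 0.000147), and for IGF2BP1 without the shared library -0.73 ± 0.12 (adjusted p = 2.46e-05).

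In nuclear RNA, control libraries held MT-ND6 at 216, 233, 179.6 and 159.9 CPM and the IGF2BP2 knockout at 58 and 54.5, far below all of them (-1.61 ± 0.14, adjusted p = 8.31e-13). The IGF2BP1 knockout, at 107 and 164 CPM, overlapped the controls in its second library (-0.75 ± 0.14, adjusted p = 3.69e-05, without the shared library -0.50 ± 0.17, adjusted p = 0.0326). DESeq2 gave that change an adjusted p of 0.168, and edgeR with no batch in the model an adjusted p of 0.0767. The IGF2BP3 libraries were apart from each other, at 157 and 307 CPM, 1 below and 1 above every control (0.40 ± 0.14, adjusted p = 0.0131). This rise rested on single libraries: without the second knockout library it was -0.17 (adjusted p = 0.367) and without control library 4 0.08 (adjusted p = 0.74).

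Cytoplasmic MT-ND6 was low everywhere, at 48.4, 61.8, 76.1 and 68.7 CPM in the controls. The IGF2BP1 knockout at 31 and 33.8 CPM (-0.76 ± 0.11, adjusted p = 1.08e-06) and the IGF2BP2 knockout at 39.7 and 39.9 CPM (-0.87 ± 0.10, adjusted p = 7.60e-09) lay below all controls. The IGF2BP3 knockout at 105, 76.6, 113 and 159 CPM lay above them (0.32 ± 0.09, adjusted p = 0.00373), by little in its second library. Without its first library the change was 0.12 (adjusted p = 0.373), and DESeq2 gave an adjusted p of 0.219.

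MT-ND6 was also set against MT-ND5, the heavy-strand complex I mRNA that abuts it, within each library. MT-ND5 was not called in total RNA of any knockout, but it changed in the fractions. It was called higher in IGF2BP1 and IGF2BP3 knockout nuclei and in IGF2BP1 and IGF2BP2 knockout cytoplasm, and lower in IGF2BP3 knockout cytoplasm. The ratio there reads changes of both genes. MT-ND6 counts per 1000 MT-ND5 counts were 99, 114, 134 and 139 in control total RNA, 49.6 and 97.4 in the IGF2BP1, 56.3 and 54.7 in the IGF2BP2 and 231 and 272 in the IGF2BP3 knockout. All knockout values were outside the control range, with the shared library just below it. In nuclear RNA the values were 236, 297, 234 and 169 in the controls and 97.4 and 120.2, 67.6 and 64.5 and 132 and 229.6 in the 3 knockouts in that order. In cytoplasmic RNA they were 14.3, 18.7, 18.4 and 18.4, against 8.18 and 8.68, 8.56 and 9.12 and 36.8, 25.3, 22.3 and 34.4. The IGF2BP1 and IGF2BP2 knockouts were below all controls in both fractions, and the IGF2BP3 knockout above all controls in cytoplasm but not in nuclear RNA.

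**Figure D5:**
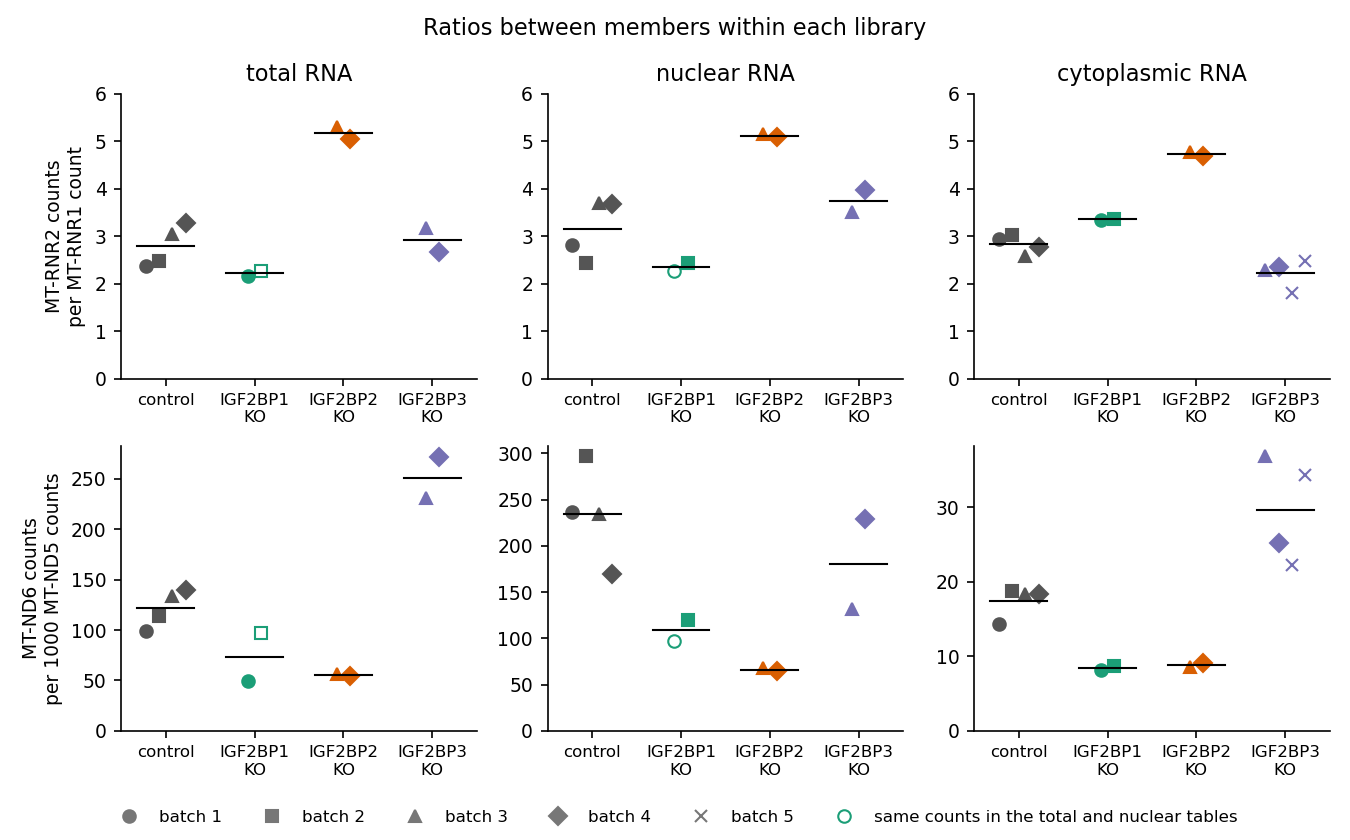
Ratios of counts within each library (y axis) by genotype (x axis): MT-RNR2 counts per MT-RNR1 count and MT-ND6 counts per 1000 MT-ND5 counts, with a bar at the mean. The rRNA ratio of the IGF2BP2 knockout, 4.69 to 5.30, lies above all controls in each kind; open symbols mark the library present in both tables.

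The other light-strand members, all tRNAs, were counted together with MT-ND6. Of 8 light-strand members tested, 0 rose and 6 fell in total, 0 rose and 7 fell in nuclear and 0 rose and 1 fell in cytoplasmic libraries of the IGF2BP2 clone, with median log2 changes of -1.79, -1.54 and -0.64. In the IGF2BP1 knockout 0 rose and 4 fell, 0 rose and 8 fell and 0 rose and 3 fell in the same order (medians -0.81, -1.24 and -0.75); without the shared library the first 2 counts became 0 up and 3 down in total RNA and 0 up and 3 down in nuclear RNA. For the IGF2BP3 knockout 2 rose and 0 fell, 1 rose and 2 fell and 2 rose and 0 fell (medians 0.28, -0.05 and 0.35). These counts are read against the shares of all genes called: 24.2, 25.7 and 44.4% after loss of IGF2BP1, 47.0, 49.7 and 64.2% after loss of IGF2BP2 and 46.9, 50.4 and 64.7% after loss of IGF2BP3, by kind as before. Read over both directions, the IGF2BP3 counts, the cytoplasmic IGF2BP2 count and the cytoplasmic IGF2BP1 count lay below these shares. They are no result about the members. Light-strand members took 0.469, 0.534, 0.552 and 0.517% of mitochondrial counts in control total RNA, 0.308 and 0.47% in the IGF2BP1, 0.262 and 0.261% in the IGF2BP2 and 0.826 and 1.03% in the IGF2BP3 knockout. In total RNA that share was lowest in the IGF2BP2 and highest in the IGF2BP3 knockout. In nuclear RNA it was 0.905, 1.15, 0.921 and 0.700% in the controls, 0.47 and 0.638% in the IGF2BP1, 0.327 and 0.292% in the IGF2BP2 and 0.466 and 0.841% in the IGF2BP3 knockout, so there the IGF2BP3 libraries were below or within the control range.

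Both light-strand tRNAs whose sequences are given above were lower in the IGF2BP1 and IGF2BP2 knockouts. MT-TQ, the glutamine tRNA, was at 2.92, 2.27, 3.78 and 3.37 CPM in control total RNA and at 1.41 and 0.973 (IGF2BP1 knockout) or 0.983 and 0.924 (IGF2BP2 knockout), below all controls. Its log2 change in the IGF2BP1 clone was -1.12 ± 0.24 (total), -1.40 ± 0.27 (nuclear) and -1.38 ± 0.47 (cytoplasmic). The IGF2BP2 clone gave -1.91 ± 0.24 (total) and -1.85 ± 0.30 (nuclear), and these 5 changes were called. MT-TP, the proline tRNA, was at 2.37, 2.5, 2.93 and 2.88 CPM in the controls and 1.57 and 0.973 and 0.867 and 0.884 in those knockouts, again with no overlap. It fell by 0.94, 0.96 and 1.10 on the log2 scale in the IGF2BP1 knockout and by 1.76 (total) and 2.11 (nuclear) in the IGF2BP2 knockout. With DESeq2 none of the 3 IGF2BP1 changes of MT-TP was called (adjusted p = 0.134, 0.133 and 0.192), and the cytoplasmic change of MT-TQ without the second knockout library was -0.43 (adjusted p = 0.649). Without the shared library the total change of MT-TP in the IGF2BP1 knockout was -0.59 ± 0.36 (adjusted p = 0.259) and that of MT-TQ -1.04 ± 0.33 (adjusted p = 0.0225); the nuclear changes were -0.56 ± 0.37 (adjusted p = 0.300) and -1.21 ± 0.32 (adjusted p = 0.00445). The MT-TP calls in both kinds thus ended without that library.

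Over all tRNAs, 15 were tested in total, 14 in nuclear and 16 in cytoplasmic RNA, and 0 rose and 4 fell in total RNA, 0 rose and 9 fell in nuclear RNA and 0 rose and 8 fell in cytoplasmic RNA in the IGF2BP1 knockout. Without the shared library there were 0 up and 3 down in total RNA and 0 up and 4 down in nuclear RNA, the nuclear ones being MT-TA, MT-TF, MT-TQ and MT-TV. The IGF2BP2 clone gave other counts: 0 rose and 7 fell in total RNA, 0 rose and 9 fell in nuclear RNA and 2 rose and 4 fell in cytoplasmic RNA. Of the same tRNAs in the IGF2BP3 clone, 1 rose and 0 fell in total RNA, 1 rose and 2 fell in nuclear RNA and 1 rose and 6 fell in cytoplasmic RNA. The shares of all genes called, by kind as before, were 24.2, 25.7 and 44.4% in the IGF2BP1 clone. They were 47.0, 49.7 and 64.2% in the IGF2BP2 and 46.9, 50.4 and 64.7% in the IGF2BP3 clone. Apart from the nuclear counts of the IGF2BP1 and IGF2BP2 clones, the tRNA counts were near or below these shares. Read over both directions, those counts are no result about the tRNAs. Called lower alone were 23.7% of all genes in IGF2BP2 total RNA and 21.9% in IGF2BP1 cytoplasm, less than the tRNA shares there. The nuclear count of the IGF2BP1 clone was smaller without the shared library, as given above, and is not read as a result either. MT-TL1, the leucine tRNA directly after MT-RNR2, had 124 to 1678 counts per library and was the most counted. It was at 19.2, 19.1, 18.3 and 16.7 CPM in control total RNA and 13.6 and 9.35 in the IGF2BP1 knockout, below all controls (-0.75 ± 0.15, adjusted p = 0.00305, without the shared library -0.49 ± 0.15, adjusted p = 0.0165). MT-TL1 also fell in IGF2BP1 knockout cytoplasm (-0.57), IGF2BP2 knockout nuclei (-0.49) and IGF2BP3 knockout cytoplasm (-0.45), and rose in IGF2BP2 knockout cytoplasm (0.21). With DESeq2 the IGF2BP2 changes were not called (adjusted p = 0.0572 in nuclear and 0.314 in cytoplasmic RNA). A mature tRNA carries no poly(A) tail and is structured and modified; whether these counts come from mature tRNAs or from precursors was not tested.

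The 12 heavy-strand mRNAs encode subunits of complexes I, III, IV and V of the respiratory chain. In total RNA of the IGF2BP1 knockout, 0 rose and 1 fell (median log2 -0.08), below the 24.2% of all genes called there. The one that fell was MT-CO1, the catalytic subunit of complex IV, at 6707 and 4995 CPM against 7481, 7163, 8909.7 and 7933 in the controls (-0.34 ± 0.09, adjusted p = 0.0165). Its low value lay in the shared library, and without that library the change was -0.15 ± 0.08 (adjusted p = 0.217). The other 11 ranged from -0.24 to 0.16 and were not called. MT-ND3 alone was called without the shared library, at 0.24 ± 0.08 (adjusted p = 0.0328).

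In IGF2BP1 knockout nuclear RNA 3 rose and 0 fell (median 0.28), a count near the 25.7% of all genes called there. The 3 were the complex I mRNAs MT-ND3 (0.50 ± 0.11, adjusted p = 0.000374), MT-ND4L (0.40 ± 0.11, adjusted p = 0.00602) and MT-ND5 (0.53 ± 0.12, adjusted p = 0.000887). MT-ND3 was at 449.7 and 401 CPM, the first from the shared library, against 344, 263, 217 and 274, above all controls. Without the shared library 10 of the 12 were called higher, among them MT-ND3 at 0.61 ± 0.12 (adjusted p = 0.000166) and MT-ND5 at 0.81 ± 0.12 (adjusted p = 1.96e-06), whereas without the other knockout library MT-ND4L was 0.08 (adjusted p = 0.671) and MT-ND5 0.27 (adjusted p = 0.123). In cytoplasmic RNA 1 rose and 8 fell (median -0.16), all by small amounts, where 44.4% of all genes were called. MT-ND5 rose (0.20), and MT-ND1 (-0.20), MT-ND2 (-0.20), MT-ND3 (-0.14), MT-CO1 (-0.17), MT-CO2 (-0.17), MT-CO3 (-0.28), MT-ATP8 (-0.16) and MT-ATP6 (-0.23) fell. None of these 9 mRNA changes was called without the batch term, where 7 members were called in that fraction against 20 with it.

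In the IGF2BP2 knockout the ATP synthase mRNAs fell in every kind of RNA. MT-ATP8 was at 526 and 569 CPM in total RNA against 615, 602, 863 and 749.5 in the controls, and MT-ATP6 at 1761 and 1846 against 2221, 2128, 2831 and 2571. Both lay below every control. MT-ATP8 changed by -0.56 ± 0.11, -0.66 ± 0.11 and -0.63 ± 0.05 across the 3 kinds, given in the order total, nuclear, cytoplasmic (adjusted p = 0.00109, 4.48e-06 and 1.66e-12), and MT-ATP6 by -0.58 ± 0.09, -0.63 ± 0.13 and -0.35 ± 0.04 (adjusted p = 0.000214, 9.43e-05 and 1.67e-09). In nuclear RNA MT-ATP8 was at 221 and 239 CPM against 523, 398, 325 and 405 and MT-ATP6 at 910.1 and 920.2 against 1879.6, 1461, 1256 and 1582, and in cytoplasm MT-ATP8 was at 1399 and 1294 against 1966, 1930.3, 2308 and 1866, each below all controls. The total call for MT-ATP8 ended without control library 3 (adjusted p = 0.0535), and the nuclear call for MT-ATP6 without control library 4 (adjusted p = 0.0652).

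Of the complex IV mRNAs, MT-CO1 and MT-CO3 also fell in the IGF2BP2 knockout. MT-CO1 fell by 0.38 in total and 0.37 in nuclear RNA on the log2 scale and MT-CO3 by 0.38 and 0.37, and neither was called in cytoplasm. MT-CO2 was not called in any kind of RNA. In total RNA it was at 3172 and 3255 CPM, within the controls at 3078, 2910, 3711 and 3431. In total RNA the MT-CO1 call ended with library totals (-0.19), without control library 3 (adjusted p = 0.0882) and without the first knockout library (adjusted p = 0.111). The MT-CO3 call there ended without the batch term (-0.20, adjusted p = 0.173) and without that knockout library (adjusted p = 0.0604). The nuclear calls of both ended when any 1 of the knockout libraries or of the controls of their batches was left out. MT-CO1 was at 6363 and 6612 CPM in total RNA, below the controls at 7481, 7163, 8909.7 and 7933. MT-ND4L, which shares an mRNA with MT-ND4, fell in nuclear (-0.35) and cytoplasmic RNA (-0.24), and MT-ND4 in cytoplasm alone among the 3 kinds (-0.12, but 0.10, adjusted p = 0.0316 with library totals). The nuclear MT-ND4L call ended with DESeq2 (adjusted p = 0.164), with library totals (0.0561) and without control library 3 (0.0519), control library 4 (0.205) or either knockout library (0.0628 and 0.141). Its cytoplasmic change was -0.01 (adjusted p = 0.806) with library totals, -0.09 (adjusted p = 0.0684) with upper-quartile scaling and -0.16 (adjusted p = 0.187) without the batch term. In total RNA MT-ND4L was at 585 and 613 CPM and MT-ND4 at 3424 and 3592, against 619, 602, 793 and 648 and 3826, 3646, 4692 and 4093 in the controls. Of the 7 complex I mRNAs, 4 rose in cytoplasm, MT-ND1 (0.47), MT-ND2 (0.33), MT-ND3 (0.26) and MT-ND5 (0.20), while MT-ND4L, MT-ND4 and MT-ND6 fell there. The complex III mRNA MT-CYB (0.26) rose. Without the batch term MT-ND2 (adjusted p = 0.152), MT-ND3 (0.0651) and MT-ND5 (0.200) were not called. In all, 5 rose and 4 fell among the 12 in cytoplasm, with a median of 0.03. There 64.2% of all genes were called, close to this count as a share of the 12, so it is no result about the members.

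All 12 heavy-strand mRNAs rose in nuclear RNA of the IGF2BP3 knockout, by 0.54 (MT-CO1) to 1.36 (MT-ND2) on the log2 scale, with a median of 0.75 against 0.01 over all genes. Of all genes, 25.1% were called higher there. MT-ND2 was at 1626 and 1658 CPM against 1032, 798, 570.3 and 718 in the controls (1.36 ± 0.13, adjusted p = 2.32e-12). MT-ND3 was at 616 and 579.7 CPM against 344, 263, 217 and 274 (1.29 ± 0.11, adjusted p = 9.88e-14). MT-CYB was at 2369 and 2514 CPM against 1361, 1133, 1123 and 1299 (1.01 ± 0.13, adjusted p = 5.88e-09). In all of these genes both knockout libraries were above every control.

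The remaining nuclear changes were 0.94 for MT-CO2, 0.79 for MT-ND1, 0.76 for MT-ATP8, 0.73 for MT-ND4L, 0.72 for MT-ND4, 0.67 for MT-ATP6, 0.63 for MT-CO3 and 0.57 for MT-ND5. MT-CO1 was at 7071 and 7849 CPM against 5467, 4708, 4847 and 5449.8, MT-ATP8 at 595 and 639 against 523, 398, 325 and 405, and MT-ND4 at 3070.1 and 3299.6 against 2426, 1861, 1721 and 2159, all without overlap. Without control library 3, whose levels were among the lowest, MT-CO1, MT-CO3, MT-ND5, MT-RNR1 and MT-RNR2 were no longer called; 9 members were then called in all, and MT-CO1 was 0.51 (adjusted p = 0.125). Fraction markers moved too: nuclear markers summed to 974 to 1123 CPM in these nuclear libraries against 262 to 372 in the controls, and cytoplasmic markers to 9774 to 10588 against 11313 to 12584, so that the cytoplasmic markers were lower where the mitochondrial mRNAs were higher. In total RNA the nuclear markers summed to 1167 to 1424 CPM in this clone and 768 to 793 in the IGF2BP2 clone. The controls held 249 to 305, so the sum was also higher in unfractionated RNA. The part of these markers in the mitochondrial changes was not tested.

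Total RNA of the IGF2BP3 clone showed fewer calls, 2 rose and 1 fell among the 12. That count was below the 46.9% of all genes called there and is no result about the members. MT-ND2, at 1938 and 2106 CPM against 1215, 1175, 1474 and 1317, and MT-ND3, at 651 and 667 against 438, 421, 489 and 473, were above all controls (0.53 ± 0.11, adjusted p = 0.0011 and 0.45 ± 0.08, adjusted p = 0.00053). MT-CO1 fell by 0.24 (adjusted p = 0.0406), at 7085 and 7124 CPM below every control, but the call ended with DESeq2 (adjusted p = 0.0906) and without the batch term (adjusted p = 0.279). In cytoplasm MT-ND2 (0.40 ± 0.05, adjusted p = 2.53e-09) and MT-ND3 (0.44 ± 0.04, adjusted p = 7.93e-12) rose again. MT-CO1 (-0.45), at 12137, 12315, 12809 and 12068 CPM against 13083, 13911, 16826 and 16612, and MT-ATP8 (-0.48), at 1414, 1564, 1935 and 1825 against 1966, 1930.3, 2308 and 1866, fell. MT-CO2 (-0.15), MT-ATP6 (-0.21), MT-ND4L (-0.23), MT-ND4 (-0.26) and MT-ND5 (-0.42) fell as well, each turning sign under library totals or without the batch term. MT-ND5 was at 2860 and 3030 CPM in batches 3 and 4 and at 5074 and 4625 in batch 5. The controls held 3375, 3304, 4138 and 3732. Its fall thus rests on batches 3 and 4, while the batch 5 libraries of the same clone lay above every control.

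IGF2BP2 and IGF2BP3 knockouts share batches 3 and 4 and were compared directly, within the same fit of all libraries of a kind. The controls do not enter the difference itself, but they help set its SE and adjusted p. In total RNA 14 members were higher and 0 lower with IGF2BP3 lost (background 43.3%, 21.8% higher and 21.5% lower), in nuclear RNA 23 and 0 (48.2%, 24.1% and 24.1%) and in cytoplasmic RNA 9 and 11 (62.7%, 31.3% and 31.5%). MT-ND6 showed a difference of 2.07 ± 0.13, 2.01 ± 0.15 and 1.18 ± 0.10 in the same order of kinds, and every IGF2BP3 knockout library was above every IGF2BP2 knockout library. MT-RNR1 was higher by 0.87, 1.01 and 0.42. MT-RNR2 was higher in nuclear RNA (0.55), lower in cytoplasm (-0.61) and not called in total RNA. All 13 mRNAs were higher in the IGF2BP3 clone's nuclei. In total RNA MT-ND2 (0.45), MT-ND3 (0.42), MT-ATP8 (0.51), MT-ATP6 (0.50), MT-CO3 (0.33) and MT-CYB (0.34) were higher; the calls of MT-CO3 and MT-CYB ended when any 1 of the 4 knockout libraries was left out. Without the first IGF2BP2 library the calls of MT-ND2 (adjusted p = 0.0944), MT-ND3 (0.0552) and MT-ATP8 ended too, as did those of MT-ND2 (0.103) and MT-ATP8 (0.108) without the second IGF2BP3 library. The member count in total RNA fell to 7 without the first or second IGF2BP2 or the second IGF2BP3 library. Without the first cytoplasmic IGF2BP2 library 13 members were called in cytoplasm.

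Whether a knockout changed the members differently in the 2 fractions was tested as an interaction. In the IGF2BP3 knockout the nuclear change exceeded the cytoplasmic change for 16 of 31 members and was smaller for 0, where 10.2% of all genes were called (4.10% higher, 6.06% lower). These 16 included both rRNAs and all 12 heavy-strand mRNAs, for which the difference ran from 0.63 (MT-CO3) to 1.18 (MT-ATP8, adjusted p = 6.39e-06), with a median of 0.91. The rRNA differences were less stable: MT-RNR1 was 0.51 ± 0.12, but 0.14 (adjusted p = 0.814) without the batch term, and its adjusted p was 0.147 or 0.0996 without nuclear or cytoplasmic control library 3 and 0.0779 or 0.0942 without the first nuclear or cytoplasmic knockout library. MT-RNR2 was 0.73 ± 0.12, and 0.66 (adjusted p = 0.0888) without the batch term. In the IGF2BP1 knockout 3 members were called (background 2.99%, 1.90% higher and 1.09% lower), MT-RNR1 (0.58 ± 0.12, adjusted p = 0.0100), MT-CO2 (0.47 ± 0.13, adjusted p = 0.0493) and MT-ND3 (0.65 ± 0.12, adjusted p = 0.00500). In the IGF2BP2 knockout 7 were called, all with the lower change in the nuclear fraction (background 18.0%, 8.68% higher and 9.35% lower), among them MT-ND6 (-0.80 ± 0.23, adjusted p = 0.0163), MT-RNR2 (-0.41 ± 0.12, adjusted p = 0.0205), MT-ND1 (-0.40 ± 0.13, adjusted p = 0.0359) and MT-CO3 (-0.39 ± 0.13, adjusted p = 0.0322). The IGF2BP1 count fell to 0 without any 1 of the cytoplasmic libraries of batches 1 and 2 and rose to 14 without the shared library or its batch control. The IGF2BP2 count fell to 0 without the second nuclear IGF2BP2 library and rose to 14 without nuclear control library 1. Cytoplasmic libraries changed in their fraction markers as well: the nuclear markers summed to 128 to 150.5 CPM in the controls, 171 to 173 in the IGF2BP1, 636 to 663 in the IGF2BP2 and 273 to 785 in the IGF2BP3 knockout. In the nuclear libraries of the IGF2BP2 knockout the nuclear markers summed to 511 to 558 CPM, less than in its cytoplasmic libraries. By this sum its 2 fractions were not in the usual order. Its cytoplasmic markers kept that order, at 11898 to 12360 CPM in nuclear and 13513 to 13628 CPM in cytoplasmic libraries. Most of the nuclear-marker sum in its cytoplasmic libraries was NEAT1. MALAT1 did not exceed 113 CPM in any cytoplasmic library, and KCNQ1OT1 did not exceed 9.56 CPM. The part of the markers in these differences was not tested.

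Nuclear genes of mitochondrial RNA metabolism were counted from lists of the pathway. Of 16 genes for mitochondrial DNA transcription and upkeep, 1 rose and 6 fell in total RNA, 0 rose and 8 fell in nuclear RNA and 0 rose and 12 fell in cytoplasmic RNA in the IGF2BP1 knockout. In the IGF2BP2 clone 1 rose and 10 fell in total RNA, 1 rose and 9 fell in nuclear RNA and 2 rose and 12 fell in cytoplasmic RNA. In the IGF2BP3 clone 1 rose and 10 fell in total RNA, 1 rose and 11 fell in nuclear RNA and 1 rose and 11 fell in cytoplasmic RNA. Median log2 changes (total, then nuclear, then cytoplasmic) were -0.07, -0.28 and -0.41, -0.43, -0.25 and -0.32 and -0.44, -0.45 and -0.45 for the 3 knockouts in that order. For these and the following lists the shares of all genes called were 24.2, 25.7 and 44.4% in the IGF2BP1, 47.0, 49.7 and 64.2% in the IGF2BP2 and 46.9, 50.4 and 64.7% in the IGF2BP3 clone, in the same order of kinds. Nothing particular to a list is read from its counts. Without the shared library the IGF2BP1 counts on this list were 1 up and 6 down in total RNA and 1 up and 8 down in nuclear RNA. TFB2M, the factor that melts the mitochondrial promoter with the polymerase, changed in the IGF2BP3 clone by -1.65 in total, -1.72 in nuclear and -1.52 in cytoplasmic RNA. TOP1MT, the mitochondrial topoisomerase, fell in each knockout, by 0.96 in total, 0.86 in nuclear and 0.89 in cytoplasmic RNA in the IGF2BP1 clone on the log2 scale. TFB1M, which methylates the 12S rRNA, changed by -0.91 in total, -0.55 in nuclear and -1.03 in cytoplasmic RNA in the IGF2BP2 knockout, and TWNK, the helicase, by -0.50 in total, -0.54 in nuclear and -0.58 in cytoplasmic RNA in the IGF2BP1 knockout. Leaving out the shared library, the total and nuclear changes were -0.99 and -0.80 for TOP1MT and -0.59 and -0.45 for TWNK, all called.

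Of 27 genes for mitochondrial RNA processing, tailing and decay, 5 rose and 4 fell in total RNA, 3 rose and 12 fell in nuclear RNA and 3 rose and 16 fell in cytoplasmic RNA in the IGF2BP1 knockout, and without the shared library there were 3 up and 6 down in total RNA and 1 up and 9 down in nuclear RNA. The IGF2BP2 clone had medians of -0.61, -0.46 and -0.53 on the list: 1 rose and 19 fell in total RNA, 0 rose and 21 fell in nuclear RNA and 1 rose and 20 fell in cytoplasmic RNA. The IGF2BP3 clone had medians of -0.61, -0.47 and -0.54: 0 rose and 19 fell in total RNA, 2 rose and 21 fell in nuclear RNA and 3 rose and 19 fell in cytoplasmic RNA. MRM3, a methyltransferase of the 16S rRNA, changed by -1.14 in total, -1.38 in nuclear and -1.43 in cytoplasmic RNA in the IGF2BP1 knockout. ELAC2, which cuts the 3′ ends of tRNAs, changed there by -0.74 in total, -1.19 in nuclear and -1.22 in cytoplasmic RNA. Leaving out the shared library, these changes were -1.42 and -1.25 for MRM3 and -0.93 and -1.14 for ELAC2 in total and nuclear RNA, all called. SLIRP, the partner of LRPPRC in protecting mitochondrial mRNAs, changed by -1.31 in total, -0.86 in nuclear and -1.16 in cytoplasmic RNA in the IGF2BP2 knockout, and SUPV3L1, the helicase of the mitochondrial degradosome, by -1.13 in total, -1.03 in nuclear and -1.15 in cytoplasmic RNA. LRPPRC itself changed in the IGF2BP3 clone by -0.95 in total, -0.94 in nuclear and -1.27 in cytoplasmic RNA. FASTK, a regulator of MT-ND6 RNA in mitochondria, rose in the IGF2BP1 knockout, by 0.93 in total, 0.36 in nuclear and 0.33 in cytoplasmic RNA. Its nuclear call ended without the shared library (0.02), without nuclear control library 1 (0.01), with DESeq2 (adjusted p = 0.376) and with no batch term (adjusted p = 0.416); the total change without the shared library was 0.62 and was called.

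The 26 nuclear-encoded partner subunits belong to the respiratory complexes, most of them beside mitochondrially encoded subunits; complex II, with SDHB, is encoded in the nucleus alone. Among them 0 rose and 23 fell in total RNA, 0 rose and 19 fell in nuclear RNA and 2 rose and 23 fell in cytoplasmic RNA in the IGF2BP2 knockout, with medians of -0.74, -0.34 and -0.69. SDHB changed there by -1.17 in total, -0.62 in nuclear and -0.94 in cytoplasmic RNA, and NDUFS3, of complex I, by -1.09 in total, -0.65 in nuclear and -1.02 in cytoplasmic RNA. With IGF2BP3 knocked out, 0 rose and 18 fell in total RNA, 2 rose and 10 fell in nuclear RNA and 3 rose and 19 fell in cytoplasmic RNA, with medians of -0.42, -0.15 and -0.43. UQCRFS1, the Rieske protein of complex III, changed there by -0.93 in total, -0.50 in nuclear and -0.83 in cytoplasmic RNA, and ATP5PB, of the ATP synthase stalk, by -0.86 in total, -0.67 in nuclear and -0.86 in cytoplasmic RNA. In the IGF2BP1 knockout 4 rose and 2 fell in total RNA, 4 rose and 1 fell in nuclear RNA and 0 rose and 16 fell in cytoplasmic RNA, and without the shared library there were 0 up and 7 down in total RNA and 2 up and 0 down in nuclear RNA. The total and nuclear counts of the IGF2BP1 clone and the nuclear count of the IGF2BP3 clone on this list were near or below the shares of all genes called. These lists were not compared with other gene lists.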

How the data were processed

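The 32 libraries were poly(A)-selected with a stranded kit and sequenced as paired 50-base reads, per the labels' protocols. STAR, featureCounts, DESeq2 1.44.0 and GRCh38 are named in the submitters' processing notes. The authors deposited raw counts per gene for each kind of RNA, and FPKM, which were used only for levels between genes in the control. Counts on features without a symbol (0.349% to 0.713% of a library) stayed in the library totals.

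Each kind of RNA was fitted whole with edgeR 4.0.16 (R 4.3.3), using TMM scaling, filterByExpr (minimum count 10), genotype and batch, the quasi-likelihood test, and Benjamini-Hochberg adjustment over all genes tested (18745 total, 18732 nuclear, 18212 cytoplasmic), with a threshold of 0.05. CPM printed for the knockouts are TMM-scaled. The SE is the size of the log2 fold change divided by the root of F. The script was tested on simulated counts. The labels put each knockout library in a batch with 1 control library, and the batch term is that block; deviations of same-batch knockout and control libraries correlated at r = -0.16 to 0.0142, so the pairing rests on the labels. Named members are both rRNAs, all mRNAs, the most counted tRNA and, per pathway list, those with the largest changes called the same way in every kind; MT-TQ and MT-TP were picked after their values were seen. The members and lists were chosen with earlier results of these data known. Alternatives were other scalings (RLE, upper quartile, library totals, TMM without the members), DESeq2 1.42.0, no filter, no batch term, the knockout's own batches, and each library left out.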

Additional observations from a re-analysis of the deposited data

Results flagged for a closer look

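Several members changed by different amounts in nuclear and cytoplasmic RNA of the same knockout, by the edgeR interaction test at an adjusted p under 0.05; values are the nuclear log2 change minus the cytoplasmic one. In the IGF2BP3 knockout these were 0.51 for MT-RNR1, 0.73 for MT-RNR2, 0.71 for MT-ND1, 0.89 for MT-ND2, 0.93 for MT-CO1, 1.03 for MT-CO2, 1.18 for MT-ATP8, 0.82 for MT-ATP6, 0.63 for MT-CO3, 0.80 for MT-ND3, 0.90 for MT-ND4L, 0.92 for MT-ND4, 0.93 for MT-ND5 and 0.94 for MT-CYB. All 14 are positive; the others called there, MT-TL1 and MT-TI, are tRNAs. In the IGF2BP1 knockout they were 0.58 for MT-RNR1, 0.47 for MT-CO2 and 0.65 for MT-ND3. In the IGF2BP2 knockout they were -0.41 for MT-RNR2, -0.40 for MT-ND1, -0.39 for MT-CO3 and -0.80 for MT-ND6, and the others called there, MT-TV, MT-TL1 and MT-TQ, are tRNAs. The nuclear IGF2BP1 libraries include the one that is also in the total table.

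None of the 76 series of 4 libraries examined, by Dixon's criterion, held a library apart from the other 3; chance gives about 1 in 20.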

How the results depend on the processing

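Of the member and pathway-gene results, DESeq2 kept direction and call in 228 of 254, RLE scaling in 253, TMM without the members in 253, upper quartile in 241, library totals in 233, no filter in 253, no batch term in 211, the knockout's own batches in 163 of 169, and leaving out a library in 2691 of 2902. The causes were not tested. Depth limits the tRNAs, of which 6 to 8 could not be tested in a kind of RNA.

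DESeq2 changed the number of members called from 5 to 3 (IGF2BP3 total), 15 to 7 (IGF2BP1 nuclear), 16 to 10 (IGF2BP2 nuclear), 18 to 11 (IGF2BP2 cytoplasm) and 20 to 10 (IGF2BP3 against IGF2BP2, cytoplasm). IGF2BP3 total went from 5 to 8 with upper quartile, 10 with library totals and 9 with its own batches. The fraction interaction went from 7 to 11 with library totals (IGF2BP2) and from 3 to 11 without the filter (IGF2BP1).

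The batch term is the replicate block. Without the block, the members called went from 20 to 7 (IGF2BP1 cytoplasm), 18 to 9 (IGF2BP2 cytoplasm), 20 to 12 (IGF2BP3 against IGF2BP2, cytoplasm) and 3 to 8 (IGF2BP1 interaction). Crossing the pairs, chosen after seeing the data, gave 5 for IGF2BP3 total and 19 for IGF2BP1 nuclear RNA.

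Leaving out single libraries gave 7 to 16 (IGF2BP1 total), 8 to 17 (IGF2BP2 total, 8 without either knockout library), 2 to 10 (IGF2BP3 total, 2 without control 4, 3 without either of its own libraries, 9 without control 1 or 2 and 10 without either IGF2BP1 library), 10 to 17 (IGF2BP1 nuclear), 7 to 18 (IGF2BP2 nuclear, 7 without control 4, 9 and 8 without the first and second knockout library), 9 to 19 (IGF2BP3 nuclear), 15 to 20 (IGF2BP1 cytoplasm), 7 to 21 and 13 to 20 (IGF2BP3 against IGF2BP2, total and cytoplasm), and 0 to 14 and 0 to 14 (interaction, IGF2BP1 and IGF2BP2).

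Signs turned in cytoplasm: in the IGF2BP2 knockout MT-ND4 was 0.0237 with upper quartile and 0.0986 with library totals; in the IGF2BP3 knockout library totals gave 0.0638 for MT-RNR2, 0.113 for MT-CO2, 0.0568 for MT-ATP6, 0.034 for MT-ND4L and 0.0123 for MT-ND4, upper quartile 0.0142 for MT-CO2, and no block 0.0467 for MT-RNR2 and 0.0995 for MT-ND5. Without single libraries MT-RNR2 in IGF2BP2 nuclear RNA ran from -0.0676 to 0.14, MT-ND6 in IGF2BP3 nuclear RNA from -0.17 to 0.92, and MT-ATP8 between IGF2BP3 and IGF2BP2 cytoplasm from -0.0297 to 0.33.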

Other observations

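The batch 5 cytoplasmic libraries of the IGF2BP3 knockout, which no control accompanies, held MT-ND6 at 112 and 158 CPM, before TMM scaling, against 118 and 85.3 CPM in batches 3 and 4 of the same clone. MT-ND5 was at 5009 and 4585 CPM in batch 5 and 3193 and 3374 CPM in batches 3 and 4. MT-RNR1 was at 4088 and 2586 CPM in batch 5 and 3318 and 3389 CPM in batches 3 and 4. For MT-RNR1 the batch 5 libraries lay 1 above and 1 below the other pair, so libraries of 1 clone differed from each other within that batch.

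Control cytoplasm was itself not uniform in the rRNAs: MT-RNR1 took the TMM-scaled values 1851, 1806, 3204 and 2821 CPM in batches 1 to 4, and MT-RNR2 5419.5, 5455, 8271 and 7818. Both genes were higher in batches 3 and 4 than in batches 1 and 2. In control total RNA MT-RNR1 went the other way, at 1798, 1654, 1616 and 1507 CPM, with the higher values in batches 1 and 2.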
